A study of Mus musculus with 6 samples.

Results

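The antiviral effector genes examined here were Mx1, Mx2, Oas1a, Oas2, Oasl1, Ifit1, Ifit2, Ifit3, Ifi44 and Ifi27l2a, 10 of the 254 genes measured, taken by symbol as the Mx, Oas, Ifit and Ifi effectors on the panel. All 10 were above the deposited floor of 20 in every sample and entered the test. RNA was extracted from the whole thickness of the treated back skin of mice of the SKH-1 strain, which are hairless and immunocompetent, and its transcripts were counted by hybridised barcoded probes, without amplification, on the nCounter Mouse Inflammation V2 panel. The UV plus BMS-202 group (n = 3) received BMS-202, a PD-L1-binding small molecule, on the skin at 8 mM in 200 µl, and the UV group (n = 3) received the acetone vehicle in the same way. There were 3 applications, the first 24 h and the second 1 h ahead of a single acute exposure to solar simulated UV light, and the last right after it. The dose was 6 kJ/m2 UVB with 90 kJ/m2 UVA, and both groups were harvested 24 h later. The labels give 3 mice per group without tying a sample to a mouse, so the p-values measure the spread between these samples, which may be technical. Unirradiated skin was not analysed here.

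Type I interferons act through a receptor on nearly all cells, whose kinases activate transcription factors that bind the interferon-stimulated response element in the promoters of target genes. The Mx, Oas, Ifit and Ifi effectors are among the most widely used readouts of that pathway, and keratinocytes, fibroblasts and immune cells of the skin can all express them. Mx proteins are GTPases that trap viral components, Oas enzymes make short oligoadenylates that activate RNase L, and Ifit proteins bind viral RNA or proteins and restrain translation.

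RefSeq promoter sequence (GRCm38.p6) was matched for 6 of the 10 genes, Oas1a, Oasl1, Ifit1, Ifit2, Ifit3 and Ifi44. The core of the interferon-stimulated response element was searched as GAAA, any 2 bases and GAAA on both strands in the 250 bases before each annotated start. It was found in 3 of these 6 genes, against 8 of 181 other panel genes with a window (4.42%) and 978 of 32851 windows of the whole table (2.98%). These 3 effectors are shown because they share these letters and yet differed in direction relative to Gapdh in the values below. That difference in direction depended on the scaling. Oas1a lies on the minus strand at chr5:120907526-120907775, Ifit1 on the plus strand at chr19:34640639-34640888 and Ifit3 on the plus strand at chr19:34583279-34583528. Each window is written 5′ to 3′ on the strand of its gene and ends at the base before the start, and capitals mark the matches, 2 in each gene and overlapping in Oas1a.
Oas1a: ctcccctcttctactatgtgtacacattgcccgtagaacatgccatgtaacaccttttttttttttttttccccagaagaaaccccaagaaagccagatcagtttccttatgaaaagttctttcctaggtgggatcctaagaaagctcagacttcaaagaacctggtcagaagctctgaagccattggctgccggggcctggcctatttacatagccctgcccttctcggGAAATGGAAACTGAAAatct
Ifit1: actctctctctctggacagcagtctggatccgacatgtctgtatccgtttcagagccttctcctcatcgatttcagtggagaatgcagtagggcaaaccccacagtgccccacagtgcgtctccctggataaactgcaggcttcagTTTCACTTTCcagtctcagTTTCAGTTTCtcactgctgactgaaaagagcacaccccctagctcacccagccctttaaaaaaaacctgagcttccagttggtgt
Ifit3: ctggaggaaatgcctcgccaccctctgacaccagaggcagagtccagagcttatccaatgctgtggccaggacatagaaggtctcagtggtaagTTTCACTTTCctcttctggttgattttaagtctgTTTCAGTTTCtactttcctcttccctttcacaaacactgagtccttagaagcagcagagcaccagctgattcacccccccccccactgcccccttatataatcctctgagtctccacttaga
The matches of Oas1a began 20 and 14 bases before the start, those of Ifit1 104 and 85 bases and those of Ifit3 156 and 122 bases. A match is a description of the letters and does not show that a factor binds there. A window without an exact match may still hold a variant of these letters.

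The values are a scaled signal that the authors deposited, with Gapdh at 6417 in every sample, so a difference is relative to Gapdh unless another scaling is named. Counts recovered from the values totalled 41537 to 45040 per sample with BMS-202 and 142900 to 160891 with UV, and the highest negative control limit (mean + 2 SD of the negative probes) lay at 45.3 on the scaled axis with BMS-202 and at 26.6 with UV. The housekeeping genes other than Gapdh also read lower with BMS-202, at 0.0723 (Gusb), 0.0785 (Cltc), 0.0998 (Pgk1), 0.121 (Hprt) and 0.328 (Tubb5) of their UV level per positive spike-in count, against 0.767 for Gapdh. Scaling therefore sets direction for many genes. For the effectors, pathway genes and pairs, each direction below that turned under another scaling is given as such. None of the 8 keratinocyte and fibroblast markers looked for is on the panel, so the labelled tissue could not be checked.

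Relative to Gapdh, 8 of the 10 effectors rose with BMS-202 and 2, Oas1a and Ifi27l2a, fell (limma, Benjamini-Hochberg adjusted p under 0.05 over 240 tested genes). Of all tested genes 38.3% were called higher and 55% lower, in total 93.3%. The median log2 difference was 0.95 over the 10 effectors and -0.56 over all tested genes. For all 10 the samples of the groups did not overlap, 8 with every BMS-202 sample higher and 2 with every BMS-202 sample lower, but neither did they for 38.8% (higher) and 56.2% (lower) of all tested genes. In bulk skin, more cells of a type that carries a transcript and more transcript per cell cannot be told apart.

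**Figure D1:**
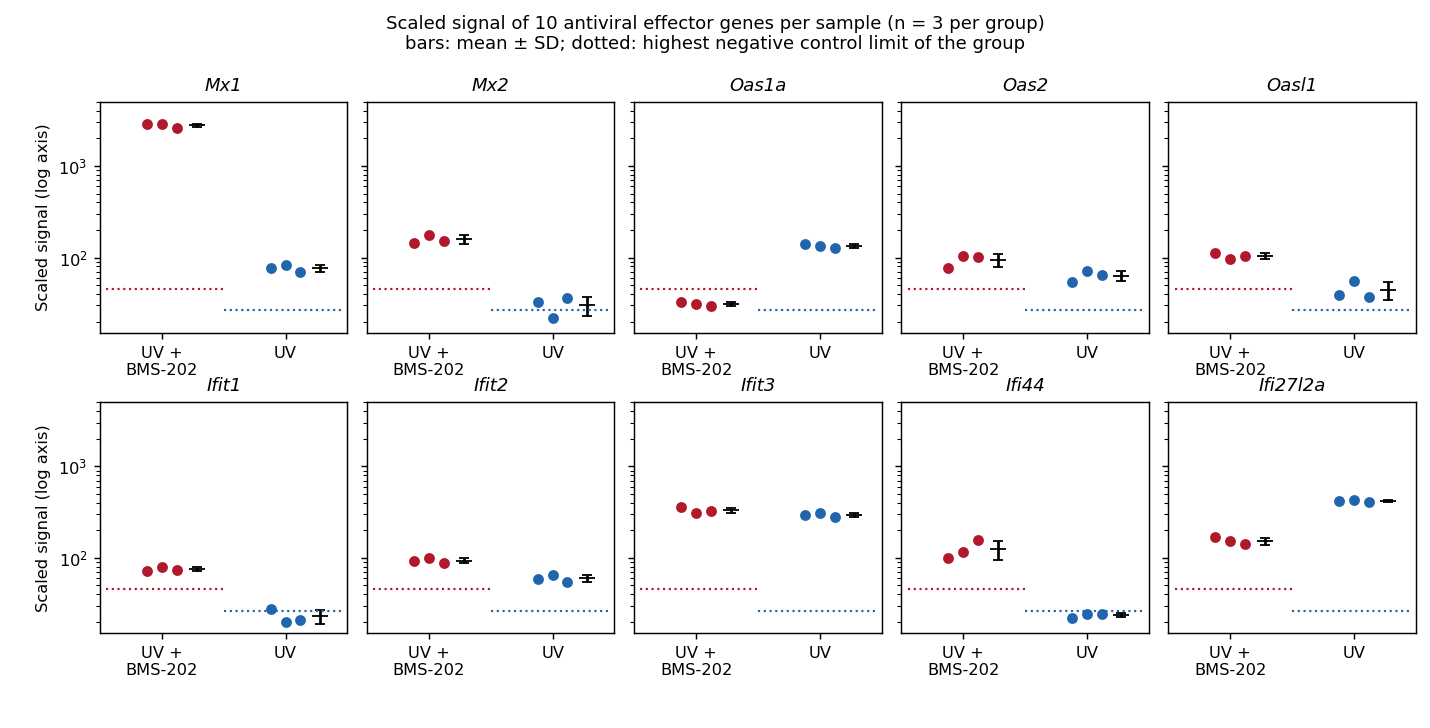
Scaled signal (log axis) of each effector gene in the 3 samples given BMS-202 (red) and the 3 UV samples (blue), with the mean ± SD beside the points and the group's highest negative control limit as a dotted line (45.3 with BMS-202, 26.6 with UV). Mx1 stands at 2618 to 2839.8 with BMS-202 and 69.8 to 82.2 with UV, and Oas1a lies under the limit in all 3 samples given BMS-202.

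The Mx genes rose by very different amounts. Mx1, whose product is a nuclear GTPase in mice and restrains influenza-like viruses, read 2839.8, 2837.6 and 2618 with BMS-202, against 76.9, 82.2 and 69.8 with UV. No other tested gene had a larger fitted log2 difference, although genes at the floor with UV give only a bound. Mx1 rose 36.2-fold (2765 ± 128 with BMS-202 and 76.3 ± 6.22 with UV, mean ± SD, n = 3), with a log2 difference of 5.16 ± 0.0679 (SE, limma adjusted p = 9.10e-13). The rise was also plain in the counts before scaling, which were 2344, 2378 and 2397 with BMS-202 and 83, 98 and 80 with UV although the total of all genes was lower with BMS-202. Mx1 alone made up 5.51 ± 0.168% of all gene counts with BMS-202 and 0.0572 ± 0.00416% with UV (SD, n = 3). Many laboratory mouse strains carry a defective Mx1 allele, and the allele of these animals is not given in the sources used here, so the transcript says nothing of the protein.

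Mx2, which encodes a cytoplasmic GTPase, read 144, 178 and 153 with BMS-202, against 32.4, 21.8 and 35.8 with UV. It rose 5.28-fold (log2 2.38 ± 0.172, SE, limma adjusted p = 2.17e-07), with 1 UV sample under its negative control limit. Within a sample the ratio of Mx1 to Mx2 signal, which does not depend on the scaling of samples, was 19.7, 16.0 and 17.1 with BMS-202 and 2.37, 3.77 and 1.95 with UV. The log2 difference of Mx1 thus exceeded that of Mx2 by 2.78 (95% interval 2.23 to 3.33). This interval comes from the fit centred on Mx2, which draws 956 degrees of freedom from 6 samples, so it may be too narrow. Both genes were called higher under all 6 scalings of the samples that were tried.

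The Oas genes split in direction. Oas1a, which encodes an active oligoadenylate synthetase, read 32.7, 31.0 and 29.5 with BMS-202, against 141, 134 and 127 with UV. The BMS-202 values, 27, 26 and 27 counts, all lay under the negative control limit, so the fall in signal is at least 2.96-fold, with a fitted log2 difference of -2.07 ± 0.0954 (SE, limma adjusted p = 5.57e-09). The sign of the fitted difference turned with scaling to the 6 housekeeping genes (log2 0.15, limma adjusted p = 0.0662) and to the 5 without Gapdh (0.56). These positive values rest on BMS-202 values under the negative control limit, so no rise is shown. Oas2, which encodes a larger enzyme of the family, read 77.5, 103 and 102 with BMS-202, against 54.7, 70.5 and 63.7 with UV, so that its lowest BMS-202 sample lay close to its highest UV sample. It rose 1.49-fold (log2 0.57 ± 0.139, SE, limma adjusted p = 0.00279), and passed neither with spike-in scaling (log2 0.19, limma adjusted p = 0.190) nor with quantile normalization (0.015, limma adjusted p = 0.968). In counts Oas2 read 64, 86 and 93 with BMS-202 and 59, 84 and 73 with UV, with no background subtracted. Oasl1, whose product lacks synthetase activity and in mice limits translation of Irf7, read 113, 96.7 and 105 with BMS-202, against 38.9, 55.4 and 37.5 with UV. It rose 2.38-fold (log2 1.25 ± 0.149, SE, limma adjusted p = 1.39e-05) and was called higher under all 6 scalings.

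Ratios within a sample, which do not depend on a sample's scaling factor, set the Oas genes apart from each other. The ratio of Oas2 to Oas1a was 2.37, 3.31 and 3.44 with BMS-202 and 0.388, 0.525 and 0.503 with UV. That of Oas1a to Oasl1 was 0.290, 0.321 and 0.281 with BMS-202 and 3.62, 2.42 and 3.37 with UV. Since Oas1a with BMS-202 lay under the negative control limit, these differences are bounds: the ratio of group means was at least 4.41-fold higher with BMS-202 for Oas2 to Oas1a and at least 7.05-fold lower for Oas1a to Oasl1. Oas2 and Oasl1 lay closer together, with ratios of 0.688, 1.06 and 0.969 with BMS-202 and 1.40, 1.27 and 1.70 with UV (log2 -0.69, 95% interval -1.14 to -0.23). In the limma fit centred on Oasl1 their difference no longer passed without BMS-202 replicate 1 (log2 -0.50, limma adjusted p = 0.0789).

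**Figure D2:**
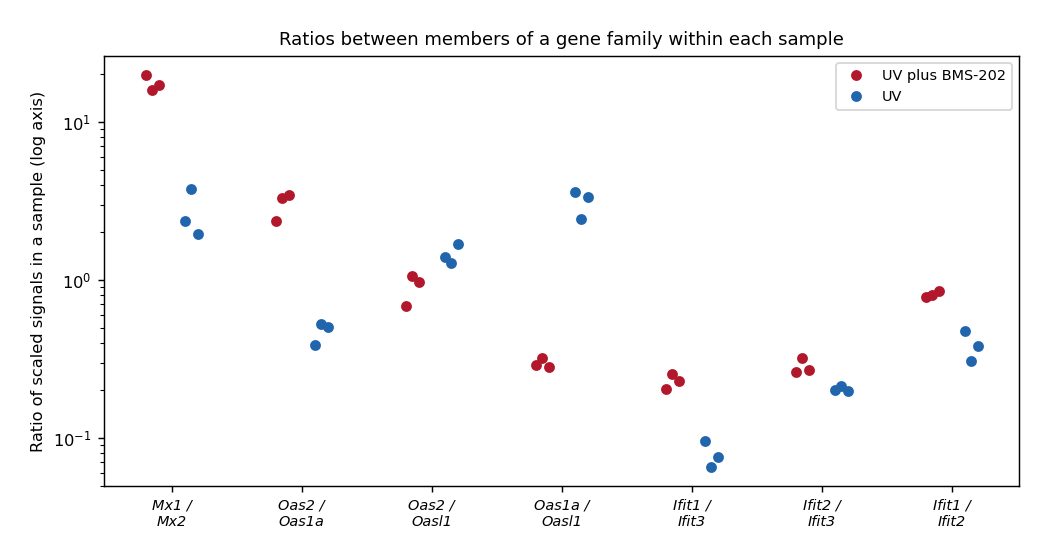
Ratio of the scaled signals of 2 members of a gene family within a sample (log axis), for 7 pairs, in the 3 samples given BMS-202 (red) and the 3 UV samples (blue). The ratio of Mx1 to Mx2 lies at 16.0 to 19.7 with BMS-202 and 1.95 to 3.77 with UV, and no pair has overlapping groups.

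Relative to Gapdh the Ifit genes rose by unequal amounts, Ifit1 most and Ifit3 least. With quantile normalization the order turned, at log2 0.24 for Ifit1, 0.070 for Ifit2 and 1.62 for Ifit3, as it also did with the housekeeping scalings under a common floor. Ifit1, whose product binds RNA with an incomplete cap, read 72.7, 80.0 and 74.3 with BMS-202, against 27.8, 20.1 and 21.0 with UV. Since 2 of 3 UV values lay under the negative control limit, the rise in signal is at least 2.85-fold, with a fitted log2 difference of 1.69 ± 0.123 (SE, limma adjusted p = 2.34e-07). Ifit2, a related protein with a wider antiviral range, read 93.3, 100.2 and 87.4 with BMS-202, against 58.4, 65.4 and 55.0 with UV. All 3 BMS-202 values lay above all UV values and the negative control limit, and Ifit2 rose 1.57-fold (log2 0.64 ± 0.105, SE, limma adjusted p = 1.67e-04). In counts it read 77, 84 and 80 with BMS-202 and 63, 78 and 63 with UV. The negative control limit was itself higher with BMS-202, at 34.5 to 37.9 counts against 26.4 to 31.7 with UV. No background was subtracted here, so its part in this small rise is not known. Neither Ifit1 nor Ifit2 passed with quantile normalization (limma adjusted p = 0.143 for Ifit1 and 0.557 for Ifit2).

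Ifit3, a partner that forms complexes with other Ifit proteins, read 357, 313 and 325 with BMS-202, against 291, 306 and 277 with UV. The lowest BMS-202 sample was just above the highest UV sample, and the rise of 1.14-fold (log2 0.19 ± 0.0696, SE, limma adjusted p = 0.0262) was the smallest of the 10. The call ended when replicate 1 or 3 of either group was left out (limma adjusted p from 0.0556 to 0.105), and the direction turned with spike-in scaling (log2 -0.19, limma adjusted p = 0.0443). Ratios within a sample differed between the groups for all 3 pairs. The ratio of Ifit1 to Ifit3 was 0.203, 0.256 and 0.228 with BMS-202 and 0.0955, 0.0657 and 0.0757 with UV and, with the UV mean of Ifit1 under the negative control limit, was at least 2.498-fold higher with BMS-202. That of Ifit1 to Ifit2 averaged 0.809 ± 0.0367 with BMS-202 and 0.388 ± 0.0845 with UV (SD, n = 3), and that of Ifit2 to Ifit3 averaged 0.283 ± 0.0325 with BMS-202 and 0.204 ± 0.00815 with UV. With values under the negative control limit set to that limit, the difference between Ifit1 and Ifit2 no longer passed (log2 0.082, limma adjusted p = 0.561). Of the Ifit windows above, those of Ifit1 and Ifit3 hold the same 2 matches. Their log2 differences relative to Gapdh were 1.69 and 0.19, an order that turned with quantile normalization.

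Over the 7 pairs, the planned limma fit with each sample centred on the second member called every pair (adjusted p from 1.11e-41 to 0.00357), but all genes of that fit share the noise of 1 gene, and the calls given above as lost were judged by the same fit. The exact permutation test of each ratio over samples gave p = 0.1 for all 7, two-sided, which is the smallest that 3 against 3 allows.

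The Ifi genes went in opposite directions. Ifi44, which encodes a cytoplasmic protein linked to antiviral and antiproliferative activity, read 101, 116 and 156 with BMS-202, against 22.2, 24.3 and 24.4 with UV. BMS-202 replicate 3 was the highest, and 2 of 3 UV values lay under the negative control limit, so the rise in signal is at least 4.67-fold (fitted log2 2.32 ± 0.150, SE, limma adjusted p = 8.44e-08). It was called higher under all 6 scalings. Ifi27l2a, a gene for a small hydrophobic membrane protein of the ISG12 family, read 167, 152 and 141 with BMS-202, against 414, 429.5 and 413 with UV. It fell 2.73-fold relative to Gapdh (log2 -1.45 ± 0.0739, SE, limma adjusted p = 1.28e-08), with no value near the negative control limit. As a share of all gene counts it differed by less than the spread of the BMS-202 samples, at 0.305 ± 0.0239% with BMS-202 and 0.314 ± 0.00351% with UV (SD, n = 3). Its direction turned with scaling to the 6 housekeeping genes (log2 0.80) and to the 5 without Gapdh (1.25), and it did not pass with quantile normalization (-0.16, limma adjusted p = 0.263).

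Low panel genes as a whole read higher with BMS-202 and high ones lower, so each effector was set beside the other tested genes whose UV mean was within 2 times of its own. Mx1 lay above all 48 such genes, whose log2 differences ran from -2.66 to 1.96 with a median of 0.22. Ifit3 lay above 75 of 77 genes (median -1.40), although its own difference was small. Oas1a lay below 59 of 65 genes (median -0.62). The other 7 lay nearer to genes of their level. Mx2 lay above 61 of 77 genes and Ifi44 above 54 of 71, but 38 genes of each set, and of that of Ifit1 below, stood at 20 in every UV sample, where no lower value is possible. With genes within 1.5 times, a set for Mx2 that holds no such gene, Mx2 lay above 25 of 29. Oasl1 lay above 29 of 44 genes (median 0.99), Ifi27l2a above 38 of 66 (-1.57), Oas2 above 25 of 43 (0.30), Ifit2 above 22 of 43 (0.52) and Ifit1 above 32 of 71 (1.83). With genes within 1.5 times, Oas2 lay above 12 of 27 (median 0.69) and Ifit2 above 11 of 26 (0.72). Both thus lay below the median of this narrower set, and the other effectors kept their side of it. No test was made of these ranks.

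**Figure D3:**
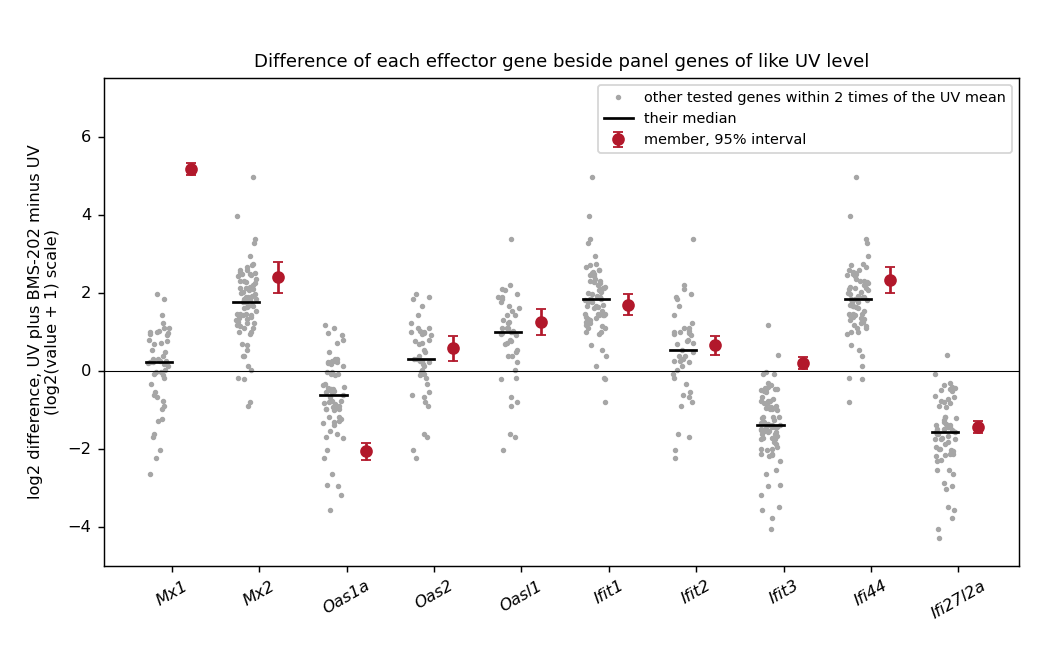
Log2 difference (UV plus BMS-202 minus UV, log2(value + 1) scale) of each effector gene with its 95% interval (red) beside the other tested genes whose UV mean lies within 2 times of its own (grey) and their median (black line). Mx1 lies above all 48 genes of its level and Ifit3 above 75 of 77, Oas1a lies below 59 of 65, and Ifi27l2a (log2 -1.45) lies near the median of its level (-1.57).

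The sign of the fitted difference depended on the scaling for 3 of the 10 genes. With no floor raised after rescaling, the smallest log2 difference over the deposited scaling and the rescalings to spike-in controls, the panel median, 6 and 5 housekeeping genes was 4.78 for Mx1, 2.01 for Mx2, 1.95 for Ifi44, 1.32 for Ifit1, 0.88 for Oasl1, 0.27 for Ifit2 and 0.19 for Oas2, each with spike-in scaling. Quantile normalization gave lower values for Ifi44 (1.85), Oasl1 (0.77), Ifit1 (0.24), Ifit2 (0.070) and Oas2 (0.015). Ifit3 ran from -0.19 to 2.89, Oas1a from -2.45 to 0.60 and Ifi27l2a from -1.83 to 1.25. The positive values of Oas1a rest on BMS-202 values under the negative control limit. Per positive spike-in count, Mx1 with BMS-202 was 27.8 times its UV level, Ifi44 4.05, Mx2 4.002, Ifit1 2.52, Oasl1 1.85, Ifit2 1.21, Oas2 1.15, Ifit3 0.876, Ifi27l2a 0.281 and Oas1a 0.178. Setting all values under the highest negative control limit to that limit kept the call and direction of all 10.

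**Figure D4:**
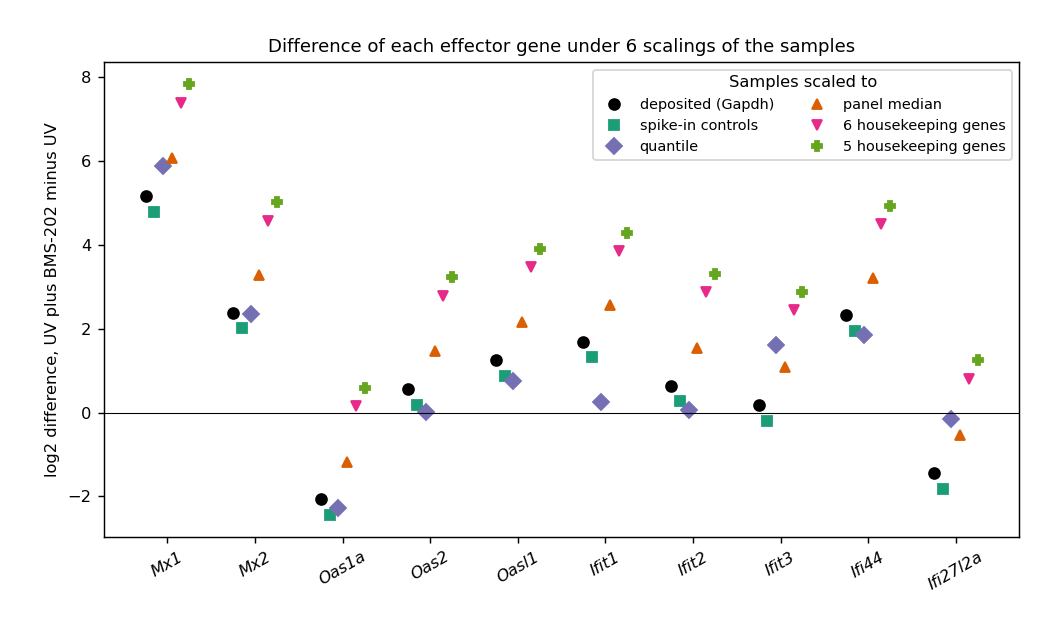
Log2 difference (UV plus BMS-202 minus UV) of each effector gene under 6 scalings of the samples, with no common floor raised after rescaling. Mx1 runs from 4.78 to 7.85, and Oas1a, Ifit3 and Ifi27l2a lie on both sides of 0.

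Of 44 other genes of the interferon pathway on a list drawn up for this comparison, 15 are on the panel, and 10 rose and 5 fell relative to Gapdh (median log2 1.10). Of all tested genes 38.3% were called higher and 55% lower. The 10 that rose had UV means of 20 to 78.4 and the 5 that fell 193 to 516. The split thus followed the pattern of the whole panel, where low genes read higher and high ones lower. Both type I interferon genes were listed at 20 in every UV sample, where no fall can show, and rose. Ifna1, of a large near-identical family, averaged 649 ± 44.8 with BMS-202, and Ifnb1 106 ± 4.41 (SD, n = 3). Stat2, which encodes a signal transducer of the type I interferon receptor, fell to 96.0 ± 5.58 with BMS-202 against 243 ± 5.90 with UV (SD, n = 3, log2 -1.33), but its direction turned with each of the housekeeping scalings. Among the interferon regulatory factors, Irf7, which amplifies interferon production, rose 1.90-fold (log2 0.91) and Irf3 3.81-fold (1.89), while Irf1 (log2 -2.02) and Irf5 (-1.63) fell. Of the endosomal sensors and their adaptor, Tlr9 rose at least 4.29-fold and Tlr7 rose (log2 1.10), and Tlr8 (-1.74) and Myd88 (-1.45) fell. Tlr3 is counted among the 10, but all its values lay under the negative control limit in both groups, so no fold is given. The interferon-induced chemokine genes Cxcl10 (log2 2.07) and Cxcl9 (at least 2.85-fold, its UV values all under the limit) rose, as did Ifng (at least 4.40-fold), which stood at 20 in every UV sample. The calls that turned or ended under other scalings are those of Stat2, Tlr3, Tlr7, Tlr8, Myd88, Irf1 and Irf5.

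The gene whose profile over the 6 samples lay nearest to that of Mx1 was Ifna1 (Euclidean distance 0.332 between centred log2 values). Those nearest to the others were Gpr44 for Mx2 (0.537), Nfatc3 for Oas1a (0.0662), Hras1 for Oas2 (0.353), Ccr7 for Oasl1 (0.369), Il7 for Ifit1 (0.344), Tlr3 for Ifit2 (0.218), Hspb2 for Ifit3 (0.113), Myl2 for Ifi44 (0.325) and Csf1 for Ifi27l2a (0.100). With 2 groups of 3, such a distance mostly reflects the size of the difference between the groups. Ifna1, Gpr44 and Myl2 stood at 20 in every UV sample and Tlr3 under the negative control limit in all 6 samples, so their nearness rests on floor or background values.

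Markers of other cell types moved beside the effectors, with directions relative to Gapdh that were not examined under other scalings. All 5 T cell markers on the panel rose, with a summed signal of 370 to 383 with BMS-202 and 136 to 161 with UV, and Ccr4, Cd40lg and Fasl stood at 20 in every UV sample. So did all 4 liver plasma protein genes, C9, Crp, Kng1 and Mbl2, which summed to 582 to 613 with BMS-202. These T cell and liver genes, apart from Cd4, are among the 71 genes within 2 times of the UV mean of Ifit1. Of those 71, 67 were called higher, and 38.3% of all tested genes were. With BMS-202 Ccr4 (mean 52.4) and Fasl (56.6) lay close above the highest negative control limit of 45.3. Ltb had 2 of 3 UV values under the limit. Macrophage markers had 1 of 4 higher (Chi3l3), 2 lower and 1 without a call, with sums of 637 to 723 with BMS-202 and 1199 to 1274 with UV. Antigen-presenting cell markers had Cd86 higher and H2-Eb1 lower, with sums of 240 to 286 with BMS-202 and 1978 to 1988 with UV. Of the neutrophil markers only Cxcr2 is on the panel, at 105 to 144 with BMS-202 and 98.99 to 125 with UV, without a call. The part of these cell types in the effector values was not tested.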

How the data were processed

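The gene values that the authors deposited are a scaled signal in which each sample's probe counts were multiplied by 1 factor. The factor was read from the values: Gapdh is identical in all samples, and dividing each sample by its own factor turned 100% of the values over 20 into whole counts, within a tolerance of 0.006 on the scaled value (plus its millionth part). Nothing is listed under 20, and the control rows hold counts without scaling. The sources used here do not give the software or any background step. The members and lists were chosen with earlier results of these data known.

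Groups came from the labels' treatment field. Genes were tested in R 4.3.3 with limma 3.58.1 (lmFit, eBayes with trend) on log2(value + 1), which understates changes of low genes, over 240 of 248 endogenous genes above 20 in at least 3 of 6 samples, with Benjamini-Hochberg adjustment at 0.05. The fit was tested on simulated data with counting noise alone and no change in most genes, which does not bear on the choice of scaling. Folds are ratios of group means, UV plus BMS-202 over UV for genes that rose and the inverse for genes that fell. A group mean under its highest negative control limit was set to that limit, which makes the fold a bound on the ratio of signals. No background was subtracted from the other group's mean, so the change in transcript may be smaller than such a bound. Of the pair intervals from the fit centred on the second member and from the combined standard errors of both genes (added after the data were seen), the wider is given, and none where a group mean lay under the limit. Both kinds borrow spread from other genes, so with 3 against 3 samples they may be too narrow. After rescaling, values were raised to 1 common floor, the highest of the rescaled 20s, or, as an alternative added later, none, since no effector was at 20. The genes named were the 10 effectors, the listed pathway genes on the panel, the housekeeping genes, the nearest profile of each effector and the listed markers. Results of some single genes are not reported here. The probes' specificity among near-identical Oas1, Ifit and Ifna paralogs is not given in the sources used here. Replicate numbers in the titles did not pair the samples: the correlations of deviations between same-numbered samples were 0.0195, -0.0329 and 0.0118.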

Additional observations from a re-analysis of the deposited data

How the results depend on the processing

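Of 642 recomputed values of single effectors, pathway genes and pairs, 596 kept their direction and side of the threshold. Most of the settings behind them left the scaling of the samples as deposited, so this share says little of the scaling. Over the 6 scalings the sign of Oas1a, Ifit3 and Ifi27l2a turned, and 9 of the 15 pathway genes stayed positive in all. With values rescaled to the 6 housekeeping genes and to the 5 without Gapdh, the counts were 184 and 204 panel genes higher and 33 and 16 lower (92 and 132 as deposited), 0 and 0 effectors lower, and 15 and 15 pathway genes higher with 0 and 0 lower (10 and 5 as deposited). With quantile normalization 5 effectors were higher and 1 lower. The median log2 difference of the effectors was 2.25 (6 housekeeping genes), 2.24 (5), 1.70 (panel median), 0.57 (spike-in controls), 0.50 (quantile), 0.84 (pseudocount 10) and 0.69 (negative control limit as floor), and without a common floor 3.17, 3.61, 1.85 and 0.57. It ran from 0.87 to 1.07 when each sample was left out. The median of all tested genes was 1.37 (6 housekeeping genes), 1.62 (5), 0.32 (panel median), -0.93 (spike-in controls), 0.047 (quantile), -0.52 (no filter), -0.76 (filter at 50) and -0.52 (pseudocount 10). With panel-median scaling 123 panel genes were higher and 98 lower, and with quantile normalization 99 and 96.

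Turned log2 differences with the 6 and the 5 housekeeping genes were 0.15 and 0.56 for Oas1a (0.15 and 0.60 without a common floor), 0.80 and 1.25 for Ifi27l2a with and without it, 0.91 and 1.36 for Stat2, 0.50 and 0.94 for Tlr8, 0.81 and 1.26 for Myd88, 0.23 and 0.68 for Irf1, and 0.61 and 1.06 for Irf5. With quantile normalization they were 0.14 for Myd88 and -0.36 for Tlr3, and with spike-in scaling -0.19 for Ifit3 with and without a common floor. The cause of these was not tested. Pair differences with the 6 and the 5 housekeeping genes were -0.17 and -0.17 for Oas2 minus Oasl1, -0.58 and -1.03 for Ifit1 minus Ifit3, -0.27 and -0.72 for Ifit2 minus Ifit3, and -0.31 and -0.31 for Ifit1 minus Ifit2. There the common floor (44.8 and 52.6) replaced 21 and 23 of 30 effector values with UV, and without it 28 of 28 pair differences under the 4 rescalings kept direction and call. With quantile normalization Ifit1 minus Ifit3 was -1.38, Ifit2 minus Ifit3 -1.55 and Ifit1 minus Ifit2 0.17, and with the negative control limit as floor Ifit1 minus Ifit2 was 0.082. Oas2 minus Oasl1 ran from -0.81 to -0.50 when each sample was left out. Leaving out a sample ended the call of Ifit3 in 4 of 6 cases. With the replicate number as a block, 8 effectors were higher and 2 lower, and the block changed no call of an effector, pathway gene or pair. The 2 planned count-model tests were not run, because the floor replaces low counts. Values of Oas1a with BMS-202, and some of Ifit1, Ifi44 and Mx2 with UV, lay under the negative control limit, so signal over background limits their folds. No background was subtracted here, and its part in the small rises of Oas2 and Ifit2 was not tested.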
